A study of Mus musculus with 10 samples.

Results

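The 10 genes described here encode IFN-induced GTPases of mouse macrophages, namely 7 guanylate-binding proteins (GBPs; Gbp2, Gbp3, Gbp4, Gbp5, Gbp6, Gbp7 and Gbp9) and 3 immunity-related GTPases (IRGs; Igtp, Irgm1 and Irgm2). They were chosen by name as members of these families, with earlier results of these data known. Counts among them therefore describe these 10 genes and not the families as a whole. All 10 were found among the 55573 gene identifiers of the expression table and among the 11978 genes that were tested. BMDMs, which are macrophages grown from bone marrow in culture with MCSF, were derived from female WT C57BL/6 mice and treated for 4 hours. There were 5 groups of 2 libraries. The control group received vehicle. The polyU group received 5 μg of poly-uridine ssRNA in a complex with the lipid DOTAP, and the PNPi+dG/rG group received ulodesine (1 μM), which inhibits purine nucleoside phosphorylase (PNP), with deoxyguanosine (5 μM) and guanosine (5 μM). The combination group (PNPi+dG/rG+polyU) received all of these, and the R848 group received R848 at 1 ng/mL. No group is labelled as DOTAP alone, and the labels do not say whether vehicle held it. The R848 and PNPi+dG/rG labels do not name it either. Where a group with polyU is set against vehicle or R848, effects of the ssRNA and of the lipid therefore cannot be told apart. The interaction term has the same limit, while the polyU and combination groups are both labelled with DOTAP. The labels call the libraries biological replicates without saying whether they came from separate mice or cultures, so p-values measure only the spread between these libraries.

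GBPs and IRGs are GTPases that assemble on the vacuoles in which intracellular pathogens live, and on some bacteria in the cytosol, and they help to disrupt these compartments. Type I and type II IFN induce their transcription through factors that bind the IFN-stimulated response element (ISRE), IRF factors among them, and through factors that bind the gamma-activated site (GAS). TLR7 is an endosomal receptor for ssRNA and guanosine, PNP degrades guanosine and deoxyguanosine, and R848 (resiquimod) is an imidazoquinoline that activates TLR7 without ssRNA. The comparisons asked how these GTPase transcripts responded to ssRNA, to stabilized guanosine nucleosides, to both, and to the synthetic ligand.

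The genes lie in 3 chromosomal groups in the mouse genome GRCm38 (GENCODE M21). Gbp2 (chromosome 3, 142620602 to 142638008), Gbp3 (142560026 to 142573209), Gbp5 (142493978 to 142522344) and Gbp7 (142530342 to 142550149) form a cluster on the plus strand of chromosome 3. Gbp4 (chromosome 5, 105115767 to 105139586), Gbp6 (105270702 to 105293698) and Gbp9 (105077630 to 105139539) form another cluster on the minus strand of chromosome 5. The IRG genes are on chromosome 11, with Igtp (58199556 to 58207591) and Irgm2 (58199618 to 58222782) overlapping on the plus strand and Irgm1 (48861968 to 48871683) apart from them on the minus strand.

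RefSeq promoter windows of GRCm38.p6, from 250 bases before to 50 bases after the transcription start, were available for 7 of the 10 genes. Both strands were searched for the ISRE core GAAANNGAAA, the GAS core TTCNNNGAA and the κB core GGGANNTTCC. The ISRE core was present in a window of each of the 7 genes, as it was for 3.99% of the 27025 mouse genes searched. Counted by window, 7 of 8 member windows held it, the exception being another start site of Gbp3, against 3.44% of 32851 windows. These 7 stretches are shown because they are the letters that the promoters of both families share, read 5′ to 3′ on the strand of the gene, with the ISRE core in capitals.
Gbp2 (chr3:142620589-142620628, plus strand): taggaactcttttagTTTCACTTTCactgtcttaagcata
Gbp3 (chr3:142559984-142560029, plus strand): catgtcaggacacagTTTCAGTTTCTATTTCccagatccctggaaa
Gbp5 (chr3:142496754-142496793, plus strand): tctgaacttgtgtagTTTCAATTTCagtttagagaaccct
Gbp7 (chr3:142530268-142530307, plus strand): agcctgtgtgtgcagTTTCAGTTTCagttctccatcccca
Igtp (chr11:58199507-58199546, plus strand): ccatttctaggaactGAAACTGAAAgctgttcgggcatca
Irgm1 (chr11:48871420-48871465, minus strand): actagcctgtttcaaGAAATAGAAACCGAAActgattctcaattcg
Irgm2 (chr11:58214898-58214937, plus strand): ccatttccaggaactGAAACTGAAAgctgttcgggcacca
In the 4 GBP promoters the ISRE was present as its reverse complement on the strand of the gene, and in the 3 IRG promoters in the forward orientation. Its first base lay at position -165 from the start site in Gbp5 and between -64 and -24 in the other 6 genes. Gbp3 and Irgm1 each held 2 ISRE cores that overlapped by 4 bases. The stretches from Igtp and Irgm2, which are neighbours in the genome, differed at 2 of 40 bases.

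The other motifs were present in some of the promoters. The GAS core, present in 8.3% of all windows (9.55% of genes), occurred at 2 positions in Gbp5 (positions -245 and -52) and in Gbp7 (positions -106 and -87), and once in Igtp (position -45) and Irgm2 (position -75). The κB core, the site of NF-κB factors, was present in 1.47% of all windows (1.63% of genes) and occurred in Gbp5 (position -77) and Gbp2 (position 8, just after the start site). No κB core was found in the windows of Gbp3, Gbp7 or the 3 IRG genes. Gbp5 and Irgm1, the genes with the largest and the smallest R848 response among the 10, are shown over the 250 bases before their start sites, with every ISRE, GAS and κB core in capitals.
Gbp5 (chr3:142496684-142496933, plus strand): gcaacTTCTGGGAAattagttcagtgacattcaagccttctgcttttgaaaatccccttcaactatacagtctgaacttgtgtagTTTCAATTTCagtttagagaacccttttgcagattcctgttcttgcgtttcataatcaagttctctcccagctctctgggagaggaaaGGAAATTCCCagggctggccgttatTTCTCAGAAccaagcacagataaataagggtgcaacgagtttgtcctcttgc
Irgm1 (chr11:48871421-48871670, minus strand): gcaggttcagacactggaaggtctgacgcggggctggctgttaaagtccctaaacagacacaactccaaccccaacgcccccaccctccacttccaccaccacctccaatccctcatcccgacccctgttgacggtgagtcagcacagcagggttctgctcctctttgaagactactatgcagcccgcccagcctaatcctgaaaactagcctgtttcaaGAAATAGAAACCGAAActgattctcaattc
A match describes letters in a window, and binding was not measured. Any link of these cores to the R848 response was not tested. Of the genes with a κB core, Gbp5 rose 93.5-fold and Gbp2 11.4-fold with R848. Of those without it, Gbp3 rose 16.3-fold and Gbp7 13.3-fold, and the IRG genes were 1.01-fold to 2.89-fold.

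**Figure D1:**
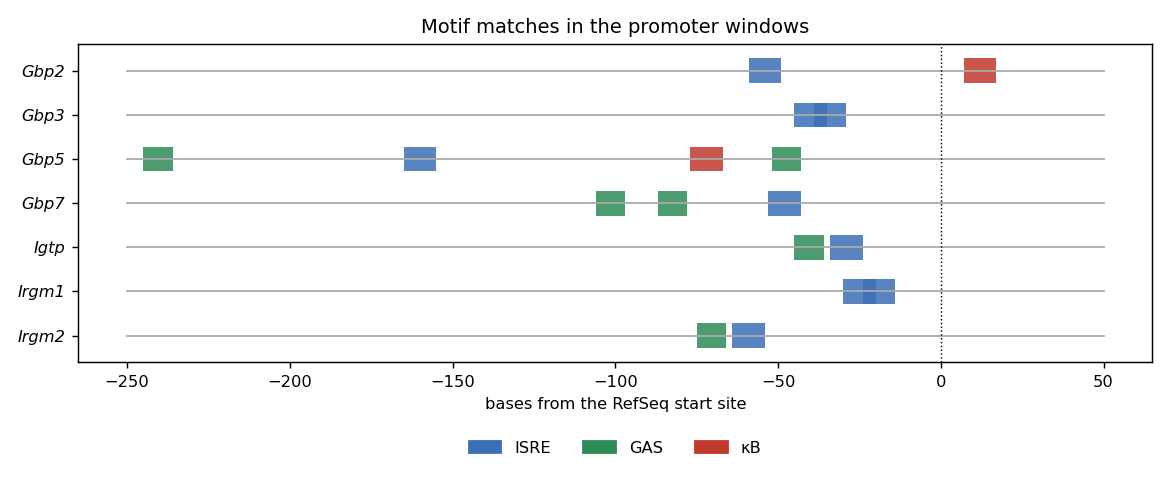
Positions of ISRE (blue), GAS (green) and κB (red) cores in the promoter windows of the 7 genes with a RefSeq window, in bases from the start site (dotted line). Every gene has an ISRE core, and Gbp2 and Gbp5 have a κB core. For Gbp3 the window with the match is drawn.

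mRNA was sequenced in reads of 50 bp, and levels are given in CPM, the authors' unit that scales the reads on a gene to a fixed total of reads on genes per library. Depth ran from 14128128 reads on genes in a PNPi+dG/rG+polyU library to 38392592 in a PNPi+dG/rG library. The lowest member value rested on 8 reads, so none of the 10 genes was at the floor of 3 reads set here for low values. Summed CPM of 8 macrophage markers (Adgre1, Cd68, Csf1r, Lyz2, Itgam, Mertk, Fcgr1, Cd14) ran from 15196 to 18027, with none at 0. The 8 T and NK cell markers summed to 4.14 to 14.5 CPM, mostly from Cd4 and Trac, with Cd3e at 0 reads in all libraries. The 4 fibroblast markers (Col1a1, Col1a2, Col3a1, Pdgfrb) summed to 136 and 146 CPM in the R848 libraries, 3.61 and 4.85 in the PNPi+dG/rG+polyU libraries and 0.505 to 1.20 in the other 6. In the PNPi+dG/rG+polyU libraries Pdgfrb gave 3.19 and 4.29 CPM of that sum. The neutrophil list, led by S100a8, summed to 21.1 and 23.4 CPM with R848 and to 2.65 to 7.503 elsewhere, with Ly6g at 0 reads throughout. In bulk RNA, fewer cells of a type and less RNA per cell cannot be told apart.

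The GBP genes of chromosome 3 were low in resting BMDMs and rose with polyU, with R848 and with the combination. Gbp5, which promotes activation of inflammasomes, had 3.87 and 2.70 CPM with vehicle, 4.56 and 5.32 with PNPi+dG/rG, 33.9 and 39.5 with polyU, 294 and 310 with R848, and 406 and 406 with PNPi+dG/rG+polyU. No libraries of different groups overlapped, and the order ran from vehicle through PNPi+dG/rG, polyU and R848 to PNPi+dG/rG+polyU. Gbp2, which gathers on pathogen vacuoles, had 15.8 and 16.2 CPM with vehicle, 17.1 and 17.0 with PNPi+dG/rG, 48.6 and 60.03 with polyU, 174 and 192 with R848, and 254 and 275 with PNPi+dG/rG+polyU. It started higher than Gbp5 and ended lower, in the same order of groups.

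Gbp3 and Gbp7 had nearly the same profile, and 126 of the 3356 stretches of 50 bases in Gbp3 transcripts also occurred in those of Gbp7. Gbp3 had 6.79 and 5.17 CPM with vehicle, 7.996 and 8.37 with PNPi+dG/rG, 34.3 and 38.1 with polyU, 92.7 and 100.2 with R848, and 158 and 162 with PNPi+dG/rG+polyU. Gbp7, which contributes to resistance to intracellular bacteria, had 8.98 and 6.52 CPM with vehicle, 10.7 and 11.1 with PNPi+dG/rG, 39.6 and 42.0 with polyU, 102 and 101 with R848, and 146 and 154 with PNPi+dG/rG+polyU. For both, every R848 library lay above the polyU libraries and below those of the combination.

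The GBP genes of chromosome 5 differed more among themselves. Gbp4 had 0.449 and 0.450 CPM with vehicle, 0.495 and 0.508 with PNPi+dG/rG, 2.56 and 3.02 with polyU, 2.55 and 2.02 with R848, and 9.77 and 10.3 with PNPi+dG/rG+polyU. These vehicle values rested on 8 reads a library, and its R848 libraries lay just below those of polyU. Gbp6, which takes part in resistance to Listeria and mycobacteria, had 0.730 and 0.731 CPM with vehicle, 0.651 and 0.642 with PNPi+dG/rG, 2.67 and 3.08 with polyU, 6.27 and 4.96 with R848, and 11.1 and 11.8 with PNPi+dG/rG+polyU. Its vehicle values rested on 13 reads a library. Gbp9 was the flattest of the 7 GBP genes, with 16.8 and 14.7 CPM with vehicle, 17.3 and 17.4 with PNPi+dG/rG, 37.1 and 33.5 with polyU, 30.3 and 31.8 with R848, and 46.4 and 47.3 with PNPi+dG/rG+polyU.

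The IRG genes rose with polyU and with the combination, and less or not at all with R848. Irgm1, which regulates the other IRG proteins and autophagy, had 89.0 and 77.9 CPM with vehicle, 91.8 and 88.6 with PNPi+dG/rG, 250.03 and 262 with polyU, 76.6 and 92.4 with R848, and 373 and 379 with PNPi+dG/rG+polyU. Its R848 and vehicle libraries overlapped, as did its PNPi+dG/rG and vehicle libraries. Irgm2, which restrains the response to cytosolic lipopolysaccharide, had 27.6 and 26.6 CPM with vehicle, 30.9 and 34.1 with PNPi+dG/rG, 118 and 128 with polyU, 58.8 and 69.3 with R848, and 256 and 249.03 with PNPi+dG/rG+polyU. Igtp (also Irgm3), a regulatory IRG of the endoplasmic reticulum, had 15.7 and 14.4 CPM with vehicle, 19.4 and 20.2 with PNPi+dG/rG, 63.4 and 74.1 with polyU, 40.2 and 47.2 with R848, and 142 and 159 with PNPi+dG/rG+polyU. Igtp and Irgm2 thus kept R848 between vehicle and polyU.

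**Figure D2:**
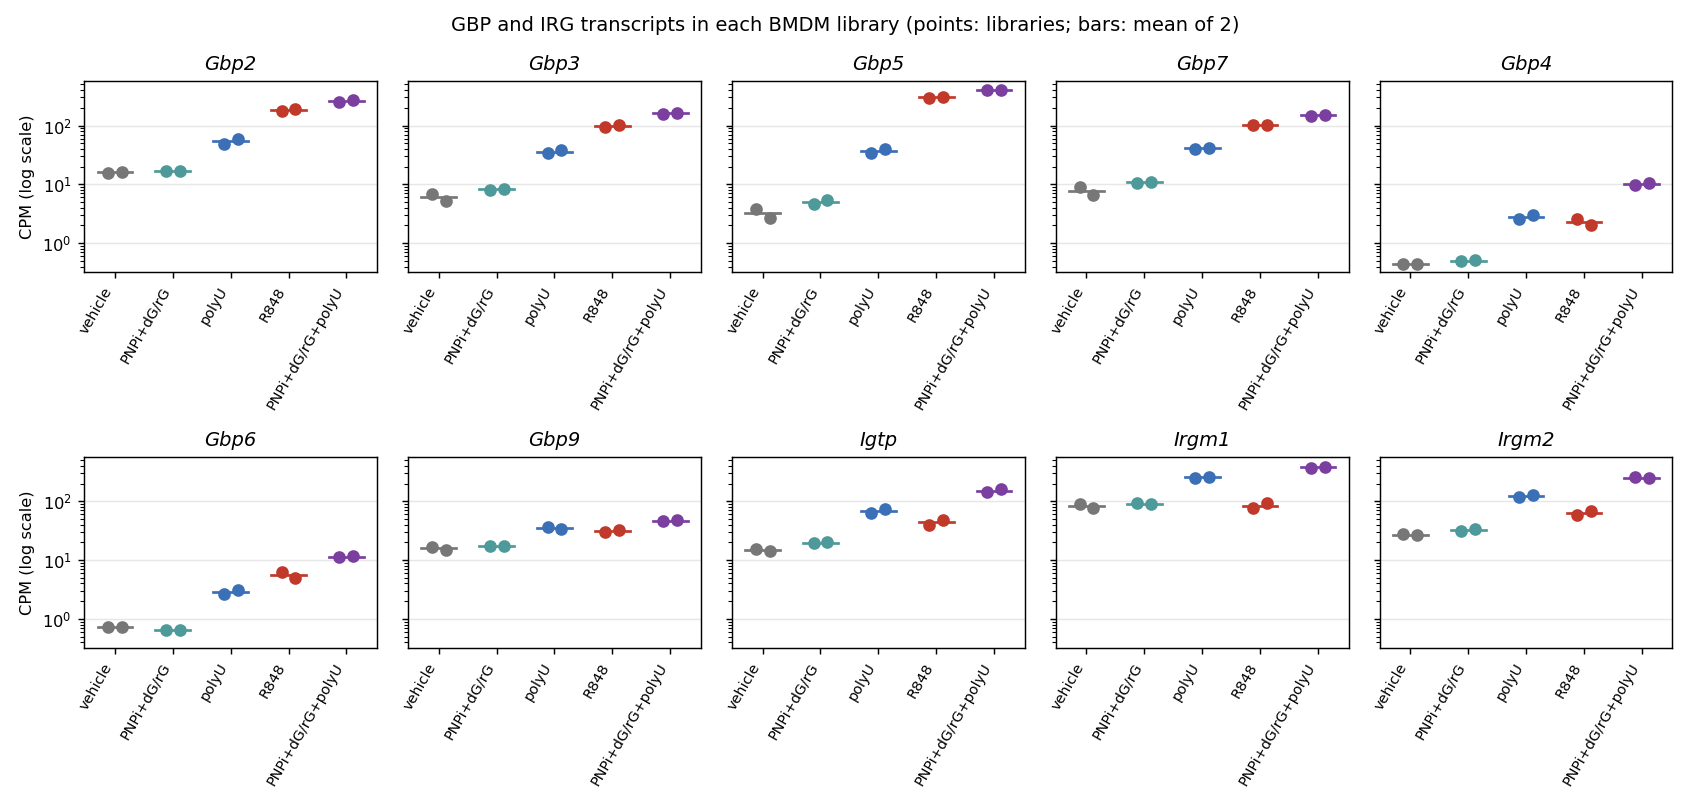
CPM of each of the 10 genes (log axis) in every library of the 5 groups. Points are libraries and bars are the mean of 2. The combination is highest for every gene. R848 lies above polyU for Gbp2, Gbp3, Gbp5, Gbp6 and Gbp7. It lies below polyU for Igtp, Irgm1 and Irgm2 and, by less, for Gbp4 and Gbp9.

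Levels of different genes were compared per kilobase of exon. With vehicle, Irgm1 was the most abundant at a mean of 14.4 CPM per kb, followed by Igtp at 7.46, Irgm2 at 7.33 and Gbp2 at 6.36, while Gbp5 had 0.495 and Gbp4 0.0600. With PNPi+dG/rG+polyU the order changed, with Gbp2 at 105 CPM per kb, Igtp at 74.5, Irgm2 at 68.4, Irgm1 at 64.7, Gbp5 at 61.2 and Gbp3 at 49.1. Gbp4 and Gbp6 stayed lowest at 1.34 and 1.93 CPM per kb. Since reads that fit several genes may be counted for 1 gene, for several or for none, the share of each gene's 50-base stretches that also occur in transcripts of other genes was computed. It was 70.7% for Gbp6, mainly shared with the overlapping gene Gm43302, and between 0.379% and 12.7% for the other 9, with Gbp7 at 12.7% and Igtp at 11.8%. The level of Gbp6 is therefore uncertain, and those of Gbp4 and Gbp9, and of Igtp and Irgm2, which overlap on the same strand, could share reads.

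All 10 genes were higher with polyU in DOTAP, given without added nucleosides, than with vehicle. In limma with Benjamini-Hochberg adjustment, 10 of 10 were called higher against vehicle, meaning an adjusted p under 0.05 and at least a 2-fold difference, where 3.21% of all tested genes were called higher. Their median log2 fold change was 2.18 against 0.02 for all tested genes. Gbp5 changed most, by 3.5 on the log2 scale (SE 0.157, adjusted p = 2.86e-07), which is 11.3-fold. Gbp3 and Gbp4 were 6.10-fold and 6.19-fold higher, Igtp 4.55-fold and Irgm2 4.53-fold. Gbp9 changed least, with a log2 fold change of 1.16 (SE 0.0846, adjusted p = 3.89e-08). The 3 IRG genes lay inside the range of the 7 GBP genes.

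PNPi+dG/rG without ssRNA gave small differences. No member was called against vehicle in limma, where 0.0751% of all tested genes were called in either direction, and none had an adjusted p under 0.05, where 0.801% of all tested genes did. Of the 10 genes, 5 had an unadjusted p under 0.05, where 8.98% of all tested genes did. The log2 fold changes ran from -0.18 for Gbp6 to 0.61 for Gbp5, with a median of 0.21 against 0.02 for all tested genes. Gbp7 had the lowest adjusted p (log2 fold change 0.51, 95% interval 0.27 to 0.76, adjusted p = 0.0640). The first vehicle library was the higher of the pair for Gbp3, Gbp5 and Gbp7. Without it the log2 fold changes were 0.66 for Gbp3 (limma adjusted p = 0.00352), 0.87 for Gbp5 (adjusted p = 0.00130) and 0.75 for Gbp7 (adjusted p = 5.22e-04). Without the other vehicle library they were 0.27, 0.35 and 0.28 (adjusted p = 0.340, 0.254 and 0.202). Both fits assume that the lone vehicle library varies like the other groups. For Igtp the log2 fold change was 0.39 (SE 0.0938, adjusted p = 0.0836).

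With PNPi+dG/rG and polyU together, all 10 genes reached their highest levels. Against vehicle, 10 of 10 were called higher, where 8.12% of all tested genes were, and their median log2 fold change was 4.01 against -0.22 for all tested genes. Gbp5 rose by 6.97 on the log2 scale (SE 0.157, adjusted p = 3.36e-10), a 126-fold difference. Gbp3 was 27.1-fold, Gbp4 22.4-fold, Gbp7 19.6-fold, Gbp2 16.5-fold and Gbp6 15.7-fold higher. The IRG genes rose less, with Igtp 9.98-fold, Irgm2 9.33-fold and Irgm1 4.51-fold higher. Gbp9 was 2.98-fold higher. All of these passed at an adjusted p of 4.30e-10 or lower. With a pseudocount of 1 CPM the log2 values of the low genes Gbp4 and Gbp6 fell from 4.48 to 2.93 and from 3.97 to 2.85, and they also fell for these genes with polyU and R848, remaining called. Some markers of other cells were also called in this comparison. Of the fibroblast markers Pdgfrb was 26.9-fold higher, while Col1a1 (1.06-fold), Col3a1 (0.629-fold) and Col1a2 did not pass. Of the neutrophil markers S100a8 was 2.54-fold higher, while S100a9 was 2.08-fold higher and did not pass (limma SE 2.81). An R848 library with 0 reads of S100a9 entered that model at 0.0001 CPM, which widens the spread, so this test cannot decide whether S100a9 changed. Of the macrophage markers Cd14 was 2.3-fold higher and Mertk lower at a ratio of 0.222. The part of all these markers in the values of the members was not tested.

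Against polyU alone, adding PNPi+dG/rG gave larger increases in Gbp2 to Gbp7 than in the IRG genes and Gbp9, with no test between genes. All 10 passed at an adjusted p under 0.05, as did 15.8% of all tested genes in that direction, and 8 of 10 were called higher at 2-fold, where 5.29% of all tested genes were. Gbp5 gained 3.47 on the log2 scale (SE 0.157, adjusted p = 9.43e-08), Gbp2 2.29, Gbp3 2.15, Gbp6 2.00, Gbp7 1.88 and Gbp4 1.85. Igtp gained 1.13 (SE 0.0938, adjusted p = 7.75e-08) and Irgm2 1.04 (SE 0.0760, adjusted p = 1.16e-08), close to the 2-fold limit. Leaving out the first polyU library put Irgm2 at 0.98. Over all alternatives Irgm2 ran from 0.98 to 1.30 and Igtp from 1.02 to 1.39. The median of all tested genes in this comparison was -0.24. Irgm1 at 0.55 and Gbp9 at 0.41 passed the test with less than a 2-fold difference. This comparison and that with vehicle share the PNPi+dG/rG+polyU libraries.

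The interaction term asked whether the effect of PNPi+dG/rG differed with polyU present. On the log2 scale it was positive in all 10 genes and passed in 9 (limma adjusted p under 0.05), as it did with a positive sign in 11.8% of all tested genes. It was called at 2-fold in Gbp2 to Gbp7, 6 genes, where 4.55% of all tested genes were called in that direction. With centred libraries, Igtp at 1.03 and Irgm2 at 1.07 were called as well, which makes 8. Gbp5 had the largest value at 2.86 (SE 0.222, adjusted p = 8.28e-06), followed by Gbp2 at 2.20 (SE 0.121, adjusted p = 1.92e-09) and Gbp6 at 2.17 (SE 0.318, adjusted p = 4.52e-05). The IRG genes had 0.44 for Irgm1, 0.74 for Igtp and 0.78 for Irgm2. Gbp9 had 0.27 (95% interval 0.02 to 0.53, adjusted p = 0.0678), and its value passed without the second vehicle library (0.37, adjusted p = 0.0203), without the first polyU library (0.35, adjusted p = 0.0423) or with centred libraries (0.56, adjusted p = 0.00107).

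**Figure D3:**
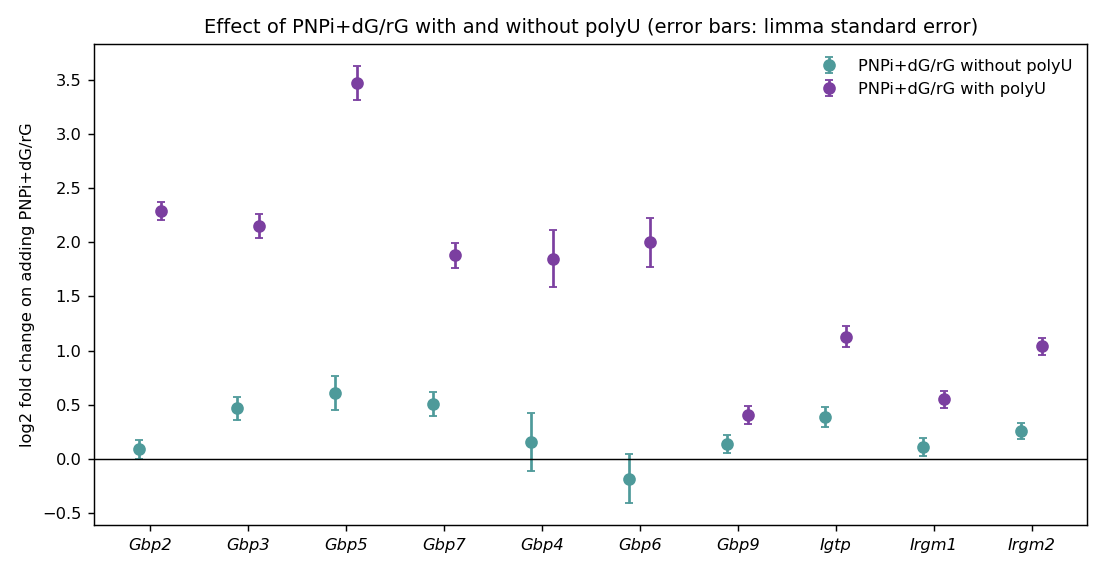
Log2 fold change on adding PNPi+dG/rG without polyU (against vehicle) and with polyU (against polyU) for each gene, with the limma SE from 2 libraries a group. Without polyU the values lie between -0.18 and 0.61, and with polyU between 0.41 for Gbp9 and 3.47 for Gbp5.

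The responses to R848 ran from a large rise of Gbp5 to none detected for Irgm1. Against vehicle, 9 of 10 genes passed as higher, as did 19.2% of all tested genes, and 8 of 10 were called higher at 2-fold, where 8.89% of all tested genes were. Gbp5 rose 93.5-fold (log2 fold change 6.55, SE 0.157, adjusted p = 2.84e-10), Gbp3 16.3-fold, Gbp7 13.3-fold and Gbp2 11.4-fold. Gbp6 was 7.64-fold and Gbp4 5.05-fold higher. Igtp was 2.89-fold and Irgm2 2.36-fold higher. Gbp9 had a log2 fold change of 0.98 (SE 0.0846, adjusted p = 2.51e-08), just under 2-fold, and was called without the first vehicle library (1.08) or the first R848 library (1.02). Irgm1 had a log2 fold change of 0.01 (95% interval -0.16 to 0.19, adjusted p = 0.869).

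With R848 the median log2 fold change of all tested genes against vehicle was -0.50, and 30.3% were called lower. Whether this was a shift of the scale or a change of many genes was not tested. After the median of its own tested genes was subtracted from each library, Irgm1 was higher with R848 than with vehicle by 0.61 (adjusted p = 1.33e-05) and Gbp9 by 1.57. Markers of other cells also differed in the R848 libraries, as in those of the combination. Of the 4 fibroblast markers, 3 were called higher with R848 than with vehicle, among them Col1a1 (51.6 and 58.3 CPM against 0.112 and 0.393). Col1a2 had 40.9 and 40.2 CPM with R848 against 0.168 and 0.337 with vehicle, but did not pass (limma SE 3.57, adjusted p = 0.104). A combination library with 0 reads of Col1a2 entered that model at 0.0001 CPM. Of the 4 neutrophil markers S100a8 was called higher and S100a9 lower. Of the T and NK cell markers Cd4 was called lower. Of the 8 macrophage markers, Cd14 was called higher and Mertk and Fcgr1 lower, Mertk being at 5.36 and 5.66 CPM with R848 against 40.3 and 40.6 with vehicle. Their part in the R848 values was not tested.

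**Figure D4:**
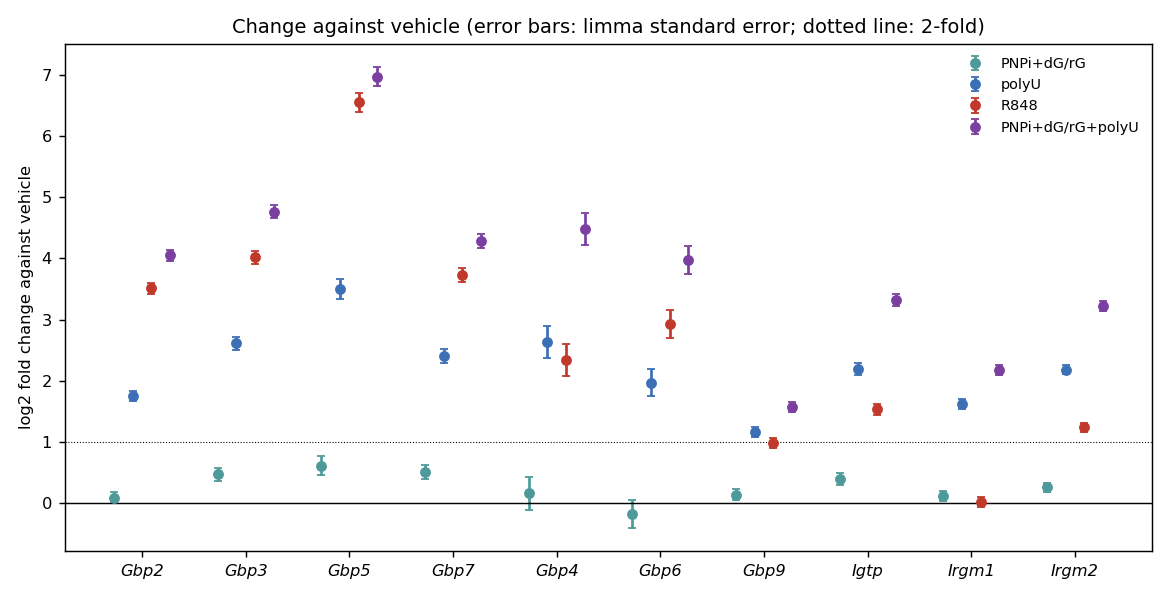
Log2 fold change against vehicle for the 4 treatments, gene by gene, with the limma SE from 2 libraries a group and a dotted line at 2-fold. R848 (red) is close to PNPi+dG/rG+polyU (purple) for Gbp5 at 6.55 and 6.97, and far below it for Irgm1 at 0.01 and 2.17.

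Set directly against polyU, R848 gave higher levels of the chromosome 3 GBPs and lower levels of the IRGs. At 2-fold, 4 of 10 genes were called higher (Gbp2, Gbp3, Gbp5 and Gbp7), where 7.55% of all tested genes were, and 1 of 10 was called lower (Irgm1), where 31.6% were. Gbp5 was 8.26-fold higher (log2 difference 3.05, SE 0.157, adjusted p = 8.78e-08), Gbp2 3.38-fold, Gbp3 2.67-fold and Gbp7 2.49-fold. Gbp6 had a log2 difference of 0.96 (SE 0.225, adjusted p = 0.00102), and it exceeded 2-fold without the second R848 library (1.13) or the second polyU library (1.06). Irgm1 fell by 1.61 on the log2 scale (SE 0.0815, adjusted p = 1.65e-09), to a ratio of 0.329.

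The remaining IRG genes were also lower with R848 than with polyU, and the remaining GBP genes did not pass. Irgm2 had a log2 difference of -0.94 (SE 0.0760, adjusted p = 1.34e-08) and was called lower without the first polyU library (-1.0) or the second R848 library (-1.06). Igtp had -0.65 (SE 0.0938, adjusted p = 1.24e-05). Passing without a fold limit were 5 genes higher, where 18% of all tested genes were, and 3 genes lower, where 64.6% were, so the share of lower members stayed under that background. Gbp4 had -0.29 (95% interval -0.86 to 0.28, adjusted p = 0.314) and Gbp9 -0.18 (adjusted p = 0.0565).

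Centring the libraries on their medians, which moved the median of all genes from -0.56 to 0.07, shifted all of these differences upward. The chromosome 3 GBPs then had 1.95 to 3.68 and Gbp6 had 1.60. Irgm1 stayed lower with R848 at -0.97 (adjusted p = 1.51e-07) and Irgm2 at -0.30 (adjusted p = 0.00179), whereas Igtp was at -0.01 (adjusted p = 0.893). Gbp9 changed sign to 0.45 (adjusted p = 1.13e-04) and Gbp4 to 0.35 (adjusted p = 0.251). The order of the genes stayed the same, since centring adds a common shift to all of them.

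**Figure D5:**
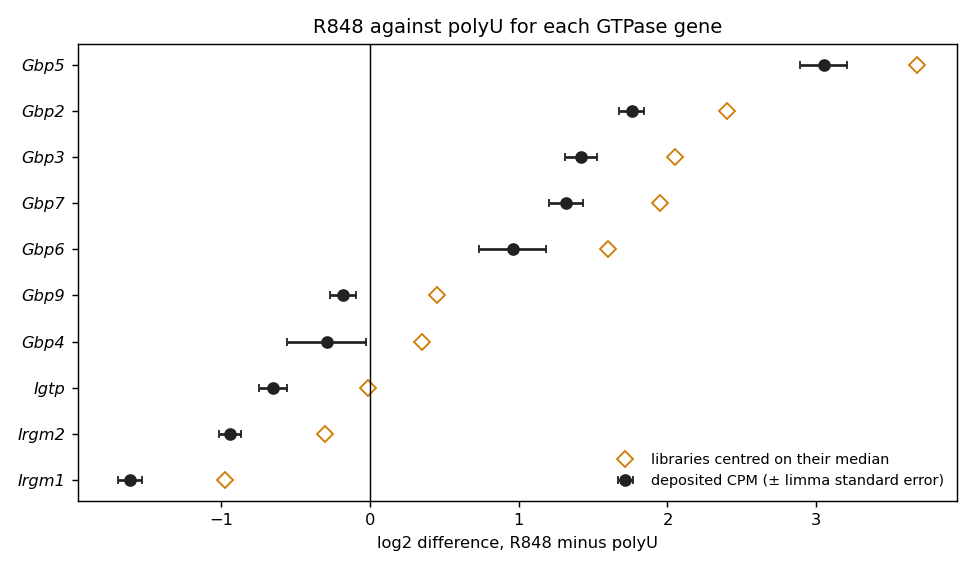
Log2 difference between R848 and polyU for each gene, from the deposited CPM with the limma SE (black, 2 libraries a group) and after centring each library on its median (open diamonds). Gbp5 at 3.05 and Irgm1 at -1.61 are the ends of the range, and the values of Igtp, Gbp4 and Gbp9 move close to 0 or across it with centring.

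The combination exceeded R848 most in the IRG genes and Gbp4. All 10 genes passed as higher in the combination group than in the R848 group, where 53.9% of all tested genes did, and 5 of 10 were called at 2-fold, where 16.9% were. Irgm1 was 4.47-fold (log2 difference 2.16, SE 0.0815, adjusted p = 2.49e-10), Gbp4 4.43-fold, Irgm2 3.95-fold and Igtp 3.45-fold higher. Gbp6 was 2.06-fold higher, and its log2 difference of 1.04 fell to 0.87 without the second R848 library and to 1.00 without the second combination library, and was 0.66 with centred libraries and 0.92 with a pseudocount of 1 CPM. The chromosome 3 GBPs differed by 0.43 to 0.73 on the log2 scale, the lowest being Gbp5 (95% interval 0.07 to 0.79, adjusted p = 0.0371). The Gbp5 difference missed the threshold in 9 of the 19 alternatives tried, with adjusted p-values from 0.0501 to 0.836. With centred libraries the IRG genes were higher in the combination by 1.4 to 1.78, Gbp3 by 0.35 (adjusted p = 0.0110) and Gbp9 by 0.21 (adjusted p = 0.0332), while Gbp2 at 0.15 (adjusted p = 0.156), Gbp5 at 0.04 (adjusted p = 0.836) and Gbp7 at 0.18 (adjusted p = 0.192) did not pass.

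Across the 10 libraries, the members' log2 CPM values correlated with each other to different degrees. These correlations describe 5 shared treatments and carry no test. Pearson's r was highest for Gbp3 with Gbp7 (0.999), and was 0.995 for Gbp2 with Gbp5 and for Igtp with Irgm2. It was lowest for Gbp5 with Irgm1 (0.534) and for Gbp2 with Irgm1 (0.555). Gbp4 and Gbp9, with 0.986 and 0.978 to Igtp, were nearer to the IRG profile than Gbp2 and Gbp5, with 0.860 and 0.851.

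Among the 8446 other genes that averaged 10 CPM or more, the gene most like each member was named by the same measure. Lacc1 (r = 0.9993) was nearest to Gbp2, Slfn2 to Gbp3 (0.9989) and Gbp7 (0.9974), and Casp4, which encodes the sensor of cytosolic lipopolysaccharide caspase-11, to Gbp5 (0.9977). Helz2 was nearest to Gbp4 (0.9954), Fyb to Gbp6 (0.9963) and Tent5a to Gbp9 (0.9975). Among the IRG genes, Ifi47, itself an IRG, was nearest to Irgm2 (0.9985), Ogfr to Igtp (0.9989) and Stard3 to Irgm1 (0.9951). Stard3 had 61.6 and 61.5 CPM with vehicle, 61.3 and 64.4 with R848, and 106 and 108 with the combination, which is the flat R848 response of Irgm1 at a smaller scale. Mndal (0.9980), Slfn5 (0.9972) and Fgl2 (0.9955) were nearest to the mean profile of the members.

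The other genes of both families were counted from a list. Of 18 further family genes, 12 were measured well enough to be tested, and Gbp2b, Gbp10 and Gbp11 were among the 6 that were not. With polyU, 6 of 12 were called higher (3.21% of all tested genes) and none lower in limma, and with the combination 6 were higher (8.12%) and 1, Gbp8, was lower (14.3%). R848 gave 3 higher (8.89%) and 4 lower, a share close to the 30.3% of all tested genes. All 6 genes raised by the combination were raised by polyU, namely Gm12250 (Irgb10), Iigp1 (Irga6), Ifi47, Tgtp2, Gm4951 and Gm5431. Gm12250, an effector IRG that acts on bacterial membranes, rose by 3.15 with polyU, 4.33 with the combination and 1.53 with R848 on the log2 scale, and its R848 libraries at 13.5 and 17.2 CPM lay below those of polyU at 46.4 and 47.5. Iigp1, an effector IRG of pathogen vacuoles, rose by 3.03, 4.20 and 1.22. Set against polyU, R848 gave 0 higher and 10 lower of the 12, where the background was 7.55% and 31.6%.

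Genes of IFN signalling rose with each stimulus in part. Of 20 listed genes, 19 were tested, with 7 called higher by polyU (3.21% of all tested genes), 9 higher (8.12%) and 1 lower (14.3%) by the combination, and 7 higher by R848 (8.89%). Socs3 and Socs1, feedback inhibitors of cytokine receptors, had the largest changes in the combination at 8.89 and 5.68 on the log2 scale, and both rose with R848 too (8.96 and 5.42). Irf1, an IRF factor that binds the ISRE, rose by 2.31 with polyU, 3.53 with the combination and 1.60 with R848. Irf8, a myeloid IRF factor, fell by 1.59 with the combination. Ifng, which encodes type II IFN, had 0 reads in 9 libraries and 1 read in the other. Ifnb1 had 0.455 and 0.174 CPM with polyU, 1.34 and 1.06 with the combination and at most 0.0920 elsewhere. Its reads were 1 and 0 with vehicle against 19 and 15 with the combination. Its differences from vehicle did not pass (limma adjusted p = 0.0545 for the combination). The vehicle library with 0 reads entered at the offset of 0.0001 CPM, which widens the spread on the log2 scale, so this test cannot decide whether Ifnb1 changed. The paper reported that polyU induced Ifnb1 in BMDMs and that PNPi with guanine nucleosides increased this response.

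Genes of the processes in which GBPs and IRGs act were also counted, against the same shares of all tested genes called higher (3.21% with polyU, 8.12% with the combination and 8.89% with R848). In the list of cell death and effector genes, 3 of 12 were called higher by polyU, 8 by the combination and 7 by R848, with none lower. Il1b rose by 8.41 with the combination and 11.67 with R848 and Nos2 by 7.22 and 9.05. Casp4 rose by 1.72 with polyU, 3.58 with the combination and 3.49 with R848. In a mixed list of ATG8 conjugation genes and of adaptors and ubiquitin-related genes, 1 of 15 tested was called higher by polyU, 2 by the combination (Sqstm1, 2.03, and Rnf213, 1.95) and 1 by R848, with Atg7 lower by R848 at -1.51, and these counts lie near those shares. Sqstm1 encodes a ubiquitin-binding adaptor and Rnf213 a ubiquitin ligase, and none of the conjugation genes Atg3, Atg5, Atg7, Atg12 and Atg16l1 was called higher in these comparisons. The last list held 8 genes whose products attach prenyl lipid anchors, which some GBPs carry, or process or bind prenylated proteins. None was called by polyU or the combination, and Fntb was lower with R848 (-1.23).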

How the data were processed

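Per the labels and the study's methods, strand-specific mRNA libraries (KAPA kit) were sequenced on an Illumina HiSeq, demultiplexed with bcl2fastq 2.19.1.403, mapped with STAR 2.27a to GRCm38 and counted on Ensembl genes, and the authors deposited CPM normalized in Partek Flow with an offset of 0.0001 on every value. The rule for reads that fit several genes is not given in the sources used here. CPM carry no correction for a few abundant transcripts taking a larger share of a library. Depth was derived from the step between low values, which were whole multiples of it (100% within 0.1 of a step), and 3 reads correspond to 0.0781 to 0.212 CPM, counting error only.

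Differences were tested on log2 of the deposited CPM with limma 3.58.1 (statmod 1.5.0) in R 4.3.3, in a single model of the 10 libraries with trended, robust eBayes, over the 11978 genes that reached 1 CPM in 2 or more libraries, with Benjamini-Hochberg adjustment within each of 8 comparisons, which share groups. The scripts were tested on simulated data. Gene symbols and positions came from GENCODE M21 (55394 of 55573 identifiers) and promoters from RefSeq. The members, the gene lists and the rule for naming other genes (the 2 largest called changes in the combination per list, genes whose role the text needed, and the highest correlations) were chosen with earlier results of these data known. Alternatives changed pseudocount, filter, scaling, eBayes, samples, thresholds and replicate block. The values of 1 gene of the IFN signalling list are not reported here.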

Additional observations from a re-analysis of the deposited data

Results flagged for a closer look

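The effect of PNPi+dG/rG differed between cells with and without polyU in 9 of the 10 genes, by the interaction term in limma (adjusted p under 0.05, positive), as it did in 11.8% of all tested genes. On the log2 scale the effect was larger with polyU by 2.86 for Gbp5, 2.20 for Gbp2, 2.17 for Gbp6, 1.70 for Gbp4, 1.68 for Gbp3 and 1.36 for Gbp7. For the IRG genes it was larger by 0.78 for Irgm2, 0.74 for Igtp and 0.44 for Irgm1. At an adjusted p under 0.05, these 9 values passed in every alternative fit run, with the highest adjusted p at 0.0471 for Irgm1.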

How the results depend on the processing

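Of 1570 values of a member in a comparison under an alternative, 1553 kept their side of the call limit and, but for 3 uncalled ones that changed sign with neither value passing, their direction, 10 became called and 6 lost their call. The 1 that reversed was Gbp9 in R848 against polyU with median-centred libraries (0.45 against -0.18). The cause was not tested. Over 10-fold and an adjusted p under 0.0001, the calls were 1 for polyU, 6 for the combination and 4 for R848 against vehicle, 1 for the combination against polyU and 0 for it against R848, for R848 against polyU and for the interaction, where fewer can pass by construction. Of the 11978 tested genes, that limit called 17 for polyU, 239 for the combination and 780 for R848 against vehicle. It called 78 for the combination against polyU, 244 for it against R848, 630 for R848 against polyU and 48 for the interaction. With no minimum fold the members called were 10 for the combination against R848 and 8 for R848 against polyU. There, 8473 and 9901 of the 11978 tested genes passed, so 8 of 10 lies near the share of all tested genes. Leaving out a library moved no total of called members by over 1.5 times, but members called lower in R848 against polyU went from 1 to 2 without the first polyU or the second R848 library.

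Among all tested genes, PNPi+dG/rG against vehicle called 9, and 0 to 29 under the alternatives with the same thresholds, and polyU called 478, or 303 with a pseudocount of 1. In the order polyU, PNPi+dG/rG, combination and R848 against vehicle, combination against polyU and R848, R848 against polyU and interaction, the calls among all tested genes were 478, 9, 2685, 4698, 1853, 2481, 4687 and 1607. With no minimum fold they were 4709, 96, 8254, 9835, 7582, 8473, 9901 and 6069, and over 10-fold at an adjusted p under 0.0001 they were 17, 0, 239, 780, 78, 244, 630 and 48. Centring changed the split of calls for R848 against vehicle from 1065 higher and 3633 lower to 1792 and 2107, and for the combination from 973 and 1712 to 1192 and 1245. Against polyU, the combination moved from 634 and 1219 to 829 and 755 and R848 from 904 and 3783 to 1778 and 1944. The combination against R848 moved from 2019 and 462 to 1194 and 852, and the interaction from 545 and 1062 to 751 and 567.

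The replicate numbers did not pair the libraries (correlation of same-numbered deviations -0.286 to 0.109, median -0.023, 10 pairs). With the replicate block the member calls in the same order stayed at 10, 0, 10, 8, 8, 5, 5 and 6, and crossing the PNPi+dG/rG numbers, chosen after seeing the data, gave the same counts. The fit without the R848 libraries was also chosen after seeing the data. By the test alone, the block put Igtp in PNPi+dG/rG against vehicle at an adjusted p of 0.0302 and Gbp5 in the combination against R848 at 0.0790 (limma). The tests planned on read counts derived from the CPM steps were left out, since the deposited unit is CPM. Depth limits Gbp4 and Gbp6, with 8 and 13 reads in each vehicle library.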
